A study of Saccharomyces cerevisiae with 279 samples.

Results

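The RNAs described here are the nuclear-encoded small nucleolar, small nuclear, telomerase and other noncoding RNAs of budding yeast (Saccharomyces cerevisiae). They were chosen by annotation alone: every feature typed as a snoRNA, snRNA, ncRNA or telomerase RNA gene in the deposited annotation (genome build R64) that had estimated counts in the abundance files. Of 6012 features 5906 were mRNAs, and the rule found all the others: 77 snoRNA genes, 6 snRNAs, 22 other ncRNAs and the telomerase RNA TLC1. The snoRNA genes were 45 of box C/D, 29 of box H/ACA, the U3 pair SNR17A and SNR17B, and NME1.

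The libraries came from 15 experiments with 77 lysates of sedimentation sequencing (Sed-seq) and 14 of Polysome-seq. In Sed-seq a lysate is split by centrifugation into supernatant and pellet, in a buffer with EDTA, which dissociates polysomes, and the Total, supernatant and pellet RNA is sequenced. In Polysome-seq a sucrose gradient separates Free from monosome and polysome fractions. The cells were BY4741 in synthetic complete medium unless stated.

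The heat groups were cells shifted for 10 min to 42°C or 46°C against cells kept at 30°C. This was done in a heat experiment, in spike-in lysates at 46°C, and in a cycloheximide (CHX) experiment with CHX or mock pretreatment. The spike-in lysates had purified total RNA of fission yeast (Schizosaccharomyces pombe) added to them, per the study's methods. That RNA is not the NanoLuc spike-in used below for scaling. The azide groups received 0.5% or 0.8% sodium azide at pH 6.8 for 30 min, against a water mock. The ethanol groups spent 15 min in medium made to hold ethanol at 5%, 7.5%, 10% and, in the strongest dose, 15%, against resuspension in plain medium. DTT was given at 10 mM for 15 min. Depletion groups carried an auxin-inducible degron on the initiation factor eIF3b (strain yJB042) or on the cap-binding protein eIF4E (strain yHG038), with a TIR1 that is itself induced by β-estradiol. They were grown in YPD and given β-estradiol and then auxin for 2 h, against the same strain given DMSO, each at 30°C, 42°C and 46°C. The arms therefore also differ in β-estradiol and in the induced TIR1. A degron acts on the protein, so RNA levels do not check it. A further 7 unstressed strains carried a Clover reporter, whose leader held a hairpin, none, or the wild-type or mutated GCN4 leader. Each condition had 2 lysates, except these reporter strains and the 2 CHX-experiment conditions at 42°C, which had 1. Lysates of a group came from separately grown cultures, per the study's methods. An exact permutation test of 2 against 2 could not go below p = 0.333.

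SnoRNAs guide chemical modification and cleavage of ribosomal RNA in the nucleolus. Box C/D RNAs guide ribose methylation and box H/ACA RNAs guide pseudouridylation, while U3, U14 (SNR128), SNR30 and SNR10 are needed for processing of the ribosomal RNA precursor. The snRNAs U1 (SNR19), U2 (LSR1), U4 (SNR14), U5 (SNR7-L and SNR7-S) and U6 (SNR6) form the spliceosome. SCR1 is the RNA of the signal recognition particle, which works in the cytoplasm. RPR1 and NME1 are the RNAs of RNase P and RNase MRP, and TLC1 carries the template of telomerase. The remaining ncRNAs include long transcripts made across promoters (SRG1, ICR1, IRT1) or antisense to a gene (RME2, RME3, SUT169, TBRT, GAL4 lncRNA). None of these RNAs is known to be translated like an mRNA, so the heavy gradient fractions are described below as heavy fractions and not as ribosome binding.

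Which of these RNAs a library could hold depended on how it was made. At least 20 estimated counts in every Total library were reached by 55 of these RNAs in the 52 paired-end libraries counted by unique molecular identifier (UMI), by 77 in the 33 paired-end libraries without UMIs, and by 39 in the 6 single-end libraries of the heat experiment. In that experiment 54 stayed under 1 count in every library, and 1 of the 61 RNAs shorter than 200 nt reached the minimum. Depth over all Total and fraction libraries was 1612859 to 25712034 estimated counts with UMIs (median 7025229), 21204035 to 37988236 in paired-end libraries without (29591367), and 14802574 to 19272310 in the heat experiment (17337848). HRA1, ZOD1 and RUF22 had a median of 0 TPM in unstressed libraries of both paired-end protocols. Box C/D RNAs are short (78 to 255 nt, median 97 nt), box H/ACA RNAs longer (161 to 1004 nt, median 204 nt), so the heat experiment bears mainly on the second group.

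Among RNAs over 300 nt, levels per length in unstressed Total libraries (TPM, scaled to transcript length and library size) ranged widely. SCR1 (YNCE0024W, chromosome V, 441987 to 442508, plus strand) was the highest, with a median of 38690 TPM in libraries with UMIs and 31350 TPM in paired-end libraries without. SNR17A (YNCO0025W, chromosome XV, 780107 to 780596, plus strand) had 24350 and 26060 TPM in the same order of protocols, and its near-identical copy SNR17B had 4012 and 2536 TPM, a split that rests on few differing bases. The U2 RNA LSR1 (YNCB0019C, chromosome II, 680688 to 681862, minus strand) had 4272 and 3655 TPM. U1, SNR19 (YNCN0005C, chromosome XIV, 230105 to 230672, minus strand), had 2322 and 2422 TPM. TLC1 (YNCB0010W, chromosome II, 307587 to 308887, plus strand) had 126.4 and 206.2 TPM. The long regulatory RNAs were lower, at 57.9 and 49.4 TPM for SRG1, 6.95 and 6.91 TPM for ICR1, and 2.65 and 1.72 TPM for IRT1.

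The first question was where these RNAs sedimented in unstressed cells. The supernatant share, pSup, is the supernatant count times its mixing ratio over the sum of both fractions so scaled, 1 meaning wholly in the supernatant. The deposited mixing ratios were estimated by the authors from mRNAs. Across 22 unstressed lysates, 96 of the RNAs were measured in 4 or more. Most lay below the median mRNA: 69 below and 27 above, with 34 below it in every lysate and 12 above it in every lysate. The 12 were RPR1, NME1, SCR1, U2, U4, both U5 forms, the H/ACA RNAs SNR84 and SNR191, the identical pair RUF5-1 and RUF5-2, and RUF20.

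The RNase P and RNase MRP RNAs were the most soluble of the well-known RNAs. RPR1 had a pSup of 0.942 at the lowest, 0.968 at the median and 0.984 at the highest of the unstressed lysates. NME1 had 0.941, 0.963 and 0.979. These ranges overlapped almost wholly. The H/ACA guide SNR84 (chromosome IV, 1492477 to 1493026, minus strand) was as high, at 0.941, 0.970 and 0.988, followed by LSR1 at 0.870, 0.956 and 0.977. SCR1, the cytoplasmic RNA among them, had 0.875, 0.919 and 0.952. The snRNAs as a class were soluble, with medians from 0.900 (SNR19) to 0.956 (LSR1), none below the median mRNA in every lysate and 4 of 6 above it in every one.

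The U3 RNAs lay far lower. SNR17A had a pSup of 0.343, 0.559 and 0.728 (lowest, median, highest) and SNR17B 0.382, 0.559 and 0.749, so the highest value of each lay below the lowest median mRNA of any unstressed lysate (0.761). U14, SNR128, had 0.354, 0.648 and 0.764. Its neighbour SNR190, transcribed with it, had 0.651, 0.764 and 0.857. The H/ACA guides SNR9 (0.220, 0.433 and 0.609), SNR34 (0.225, 0.461 and 0.928), SNR37 (0.341, 0.563 and 0.780) and SNR11 (0.195, 0.583 and 0.862) were also low. SNR30 was not, with 0.775, 0.865 and 0.908. Of 42 box C/D RNAs measured 18 were below the median mRNA in every lysate and 0 above it in every one, with member medians from 0.462 to 0.924. Of 29 box H/ACA RNAs 8 were below and 2 above in every lysate, with member medians from 0.433 to 0.970. The order of neighbouring H/ACA RNAs was not resolved, since the ranges over lysates overlapped widely.

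**Figure D1:**
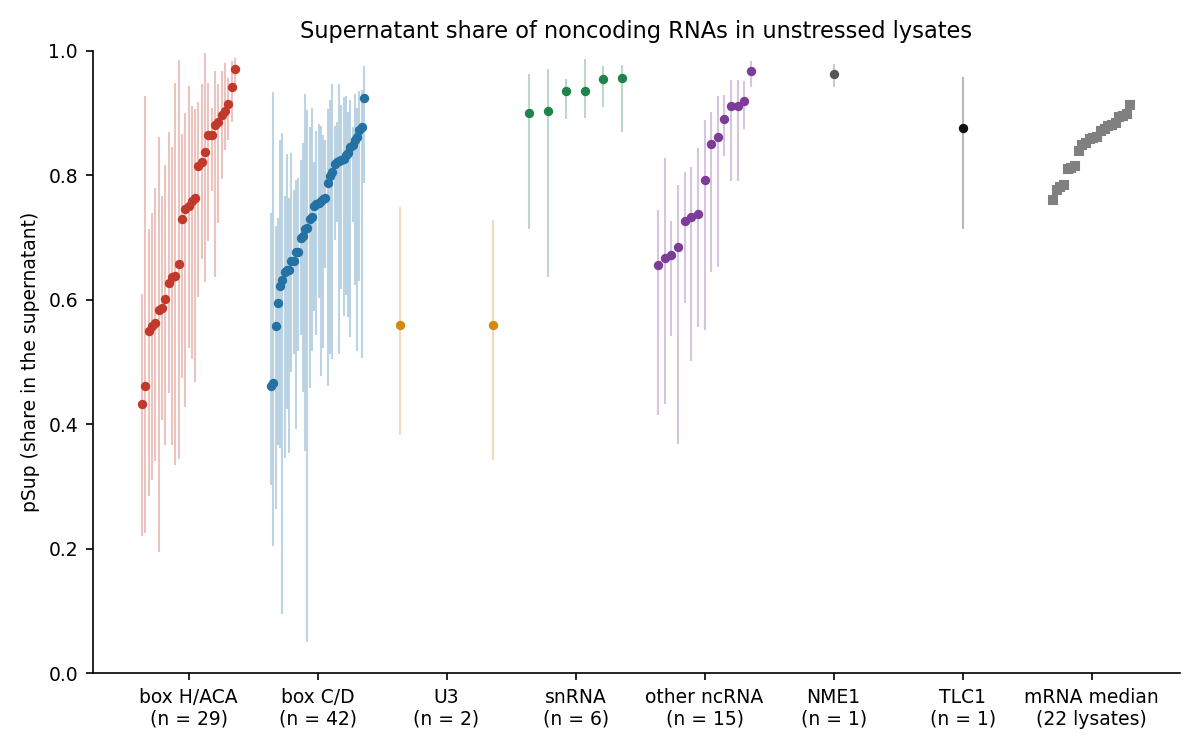
Supernatant share (pSup, 0 to 1) of each noncoding RNA by class in unstressed lysates; points are medians over lysates, lines run from the lowest to the highest lysate, and grey squares are the median mRNA of each of the 22 lysates. The snRNAs and NME1 sit at 0.900 or above, while many box C/D and H/ACA RNAs and both U3 RNAs (0.559) lie below the mRNA squares.

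Length did not order these values. Spearman's rho between length and median pSup was 0.15 over the 96 RNAs, -0.24 within box C/D and 0.422 within box H/ACA. These are correlations across RNAs that share libraries, given as a description. For snoRNAs the 2 fractions did not add up to the Total as they did for mRNAs. The log2 ratio of Total to the scaled sum of supernatant and pellet had a median over lysates of 0.399 for box C/D, 0.195 for box H/ACA, 0.0995 for snRNAs and -0.016 for other ncRNAs, against -0.00328 for mRNAs. For box C/D RNAs it ranged from -0.305 to 1.4 over lysates, against -0.0238 to 0.0124 for mRNAs. The range was -0.345 to 1.05 for box H/ACA RNAs and -0.439 to 1.01 for snRNAs. The ratio also differed between lysates of 1 experiment. In the CHX experiment's mock arm it was -0.305 and -0.157 at 30°C for box C/D RNAs, and 0.94 and 0.974 at 46°C. For box H/ACA RNAs it was -0.218 and -0.033 there at 30°C, and 0.46 and 0.34 at 46°C. With 5% ethanol it went the opposite way for box C/D RNAs, at -0.285 and 0.119, against 0.267 and 0.289 in mock. In the 0.5% azide experiment it was high for box H/ACA RNAs in both arms, at 0.936 and 1.05 in azide and 0.689 and 0.974 in mock. The part of this imbalance in the pSup of snoRNAs, or in its changes with treatment, was not tested. The pSup values of these RNAs are best compared between lysates of 1 experiment, though the imbalance remains there.

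The gradients gave a similar order. Counts of each gradient fraction were first scaled by the S. pombe RNA added to it. Over the unstressed gradient lysates the share in the Free fraction was 0.979 to 0.984 for RPR1, 0.965 to 0.975 for SCR1, 0.907 to 0.948 for LSR1, 0.806 to 0.860 for SNR19 and 0.768 to 0.873 for TLC1. SNR17A was at 0.326 to 0.488 and ICR1 at 0.171 to 0.358. The median mRNA had 0.0859 to 0.167 in the Free fraction, below nearly all of these RNAs. Spearman's rho between the mean Free share and the median pSup was 0.591 over 96 RNAs, 0.523 over 42 box C/D RNAs and 0.711 over 29 box H/ACA RNAs, across RNAs and from separate lysates.

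Heat shock was the second question. At 46°C mRNAs mostly left the supernatant, while many noncoding RNAs did so less. In the heat experiment the median mRNA had a pSup of 0.200 and 0.216 at 46°C, against 0.884 and 0.881 at 30°C. SCR1 had 0.820 and 0.777 at 46°C, against 0.935 and 0.905 at 30°C. SNR37, an H/ACA guide (YNCJ0007C, chromosome X, 228094 to 228479, minus strand), had 0.733 and 0.735 at 46°C, against 0.780 and 0.752 at 30°C. Both RNAs thus stayed mostly soluble in lysates where the median mRNA was mostly pelleted. TLC1 had 0.162 and 0.170 at 46°C, against 0.958 and 0.958 at 30°C, and so fell below the mRNAs from a start above them.

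Changes were tested as the difference in log odds of pSup (natural log) minus the same difference for the median mRNA. A value of 1 means that the odds of the supernatant moved 2.72-fold higher than for the median mRNA, and the mixing ratio, which acts on all RNAs of a lysate alike, drops out. All p-values on sedimentation are from limma over all features, with Benjamini-Hochberg adjustment and a threshold of 0.05. For many changes the pSup values are given beside them.

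In the heat experiment at 46°C, 20 of 39 tested RNAs were higher relative to mRNAs and 3 lower, where 17.1% and 9.63% of all features were. By class, 13 of 16 box H/ACA RNAs were higher, with a class median of 1.93. SNR37 changed by 3.18 ± 0.27 (SE, adjusted p = 0.00504), SNR31, an H/ACA guide of 18S rRNA, by 2.34 ± 0.57 (adjusted p = 0.0243), SCR1 by 2.28 ± 0.23 (adjusted p = 0.00504) and SNR30 by 2.20 ± 0.28 (adjusted p = 0.00585). NME1 changed by 2.13 ± 0.19 (adjusted p = 0.00504), RPR1 by 1.37 ± 0.18 (adjusted p = 0.0059) and LSR1 by 0.93 ± 0.22 (adjusted p = 0.0222). The 3 that fell were TLC1 (-1.39 ± 0.13, adjusted p = 0.00504), SRG1 (-0.85 ± 0.14, adjusted p = 0.00888) and IRT1 (-0.69 ± 0.13, adjusted p = 0.0116). The long IRT1 had a pSup of 0.110 and 0.159 at 46°C, against 0.894 and 0.898 at 30°C. U1 and U3 did not pass: SNR19 was at -0.47 ± 0.31 (adjusted p = 0.29) and SNR17A at 0.61 ± 0.22 (adjusted p = 0.083). None of these calls was made without the first 46°C lysate (0 of 39).

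In absolute log odds nearly every feature fell at 46°C. Of the 39 RNAs 37 were lower, where 99.9% of all features were, and at 42°C 29 of 39, where 99.3% were. At 42°C the mRNA median was a pSup of 0.577 and 0.569. Relative to it 15 of 39 RNAs were higher and 1 lower, where 9.22% and 3.5% of all features were. Box H/ACA held 10 of the 15, with a class median of 1.01. SCR1 had 0.919 and 0.894 at 42°C, against 0.935 and 0.905 at 30°C (1.54 ± 0.23, adjusted p = 0.0185). SNR30 had 0.914 and 0.817 at 42°C, against 0.905 and 0.902 at 30°C (1.41 ± 0.28, adjusted p = 0.0256). TLC1 was the RNA that fell, to 0.483 and 0.384 at 42°C, against 0.958 and 0.958 at 30°C (-1.68 ± 0.13, adjusted p = 0.00554). SNR17A had 0.494 and 0.330 at 42°C, against 0.705 and 0.728 at 30°C (0.42 ± 0.22, adjusted p = 0.234). The calls at 42°C rested on both treated lysates: 1 RNA was called without the first and 2 without the second.

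Both other 46°C experiments used separate lysates and held the short RNAs too. In the spike-in lysates the median mRNA had a pSup of 0.184 and 0.290 at 46°C, against 0.858 and 0.811 at 30°C, so its 2 heat lysates differed. Relative to mRNAs 55 of 89 RNAs were higher and 3 lower, where 25.8% and 16.1% of all features were. All 29 box H/ACA RNAs were higher (class median 1.92), as were 13 of 36 box C/D RNAs, with 1 lower (0.524), 5 of 6 snRNAs, and 5 of 14 other ncRNAs, with 1 lower. SNR11, an H/ACA guide (chromosome XIII, 652275 to 652532, plus strand), had 0.517 and 0.724 at 46°C, against 0.605 and 0.653 at 30°C (2.81 ± 0.13, adjusted p = 3.73e-13). SNR30 had 0.816 and 0.893 at 46°C, against 0.881 and 0.881 at 30°C (2.62 ± 0.12, adjusted p = 3.73e-13). For these RNAs the heat and control lysates overlapped or lay close in pSup itself. SCR1 had 0.709 and 0.834 at 46°C, against 0.936 and 0.898 at 30°C (1.65 ± 0.16, adjusted p = 8.18e-08).

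U3 and U1 took a middle place there. SNR17A had a pSup of 0.0880 and 0.226 at 46°C, against 0.587 and 0.534 at 30°C (0.79 ± 0.14, adjusted p = 0.000132). SNR19 had 0.224 and 0.411 at 46°C, against 0.914 and 0.878 at 30°C (-0.15 ± 0.10, adjusted p = 0.248). U1 thus moved about as the median mRNA did, and U3 less. The 3 lower RNAs were SRG1 (0.0903 and 0.222 at 46°C, against 0.855 and 0.850 at 30°C, a change of -0.72 ± 0.15, adjusted p = 0.000649), TLC1 (0.119 and 0.230 at 46°C, against 0.829 and 0.814 at 30°C, a change of -0.31 ± 0.10, adjusted p = 0.0121) and SNR39 (-0.71 ± 0.21, adjusted p = 0.0108). SNR39 lies in an intron of RPL7A, so its counts may hold pre-mRNA reads. TLC1 did not pass when the comparison was centred on mRNAs under 1000 nt.

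In the mock arm of the CHX experiment 47 of 62 RNAs were higher relative to mRNAs at 46°C than at 30°C and 0 lower, where 4.43% and 1.7% of all features were. Without the first mock 46°C lysate the number was 26. All 29 box H/ACA RNAs were higher (class median 2.53) and 10 of 14 box C/D RNAs (1.76). SNR37 had 0.666 and 0.676 at 46°C, against 0.478 and 0.619 at 30°C (3.53 ± 0.21, adjusted p = 0.000243), and SNR34 had 0.582 and 0.578 at 46°C, against 0.359 and 0.618 at 30°C (3.38 ± 0.31, adjusted p = 0.000812). For SNR37 every heat lysate lay above every control lysate, while the median mRNA had 0.217 and 0.219 at 46°C, against 0.839 and 0.860 at 30°C. TLC1 moved with the mRNAs there (0.206 and 0.186 at 46°C, against 0.814 and 0.857 at 30°C, a change of -0.03 ± 0.13, adjusted p = 0.894). SRG1 was at -0.57 ± 0.18 (adjusted p = 0.0929).

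Across the 3 experiments at 46°C, which share no lysates, 35 RNAs were tested in all. The heat experiment limited this set, since its tested RNAs held 16 of box H/ACA and 1 of box C/D, SNR63. Of the 35 RNAs 26 were above 0 in each, 6 below 0 in each (TLC1, SRG1, IRT1, RME2, RME3 and SNR19), and 18 were called higher in each. The share of all features called higher in all 3 was not computed. In the single experiments it was 17.1% (heat), 25.8% (spike-in lysates) and 4.43% (CHX experiment, mock). Spearman's rho of the changes across RNAs was 0.871 to 0.944 between pairs of experiments. The size of the TLC1 change was not alike, at -1.39, -0.31 and -0.03. Its unstressed pSup was also higher in the single-end experiment than in the other two, and the difference between experiments was not tested.

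**Figure D2:**
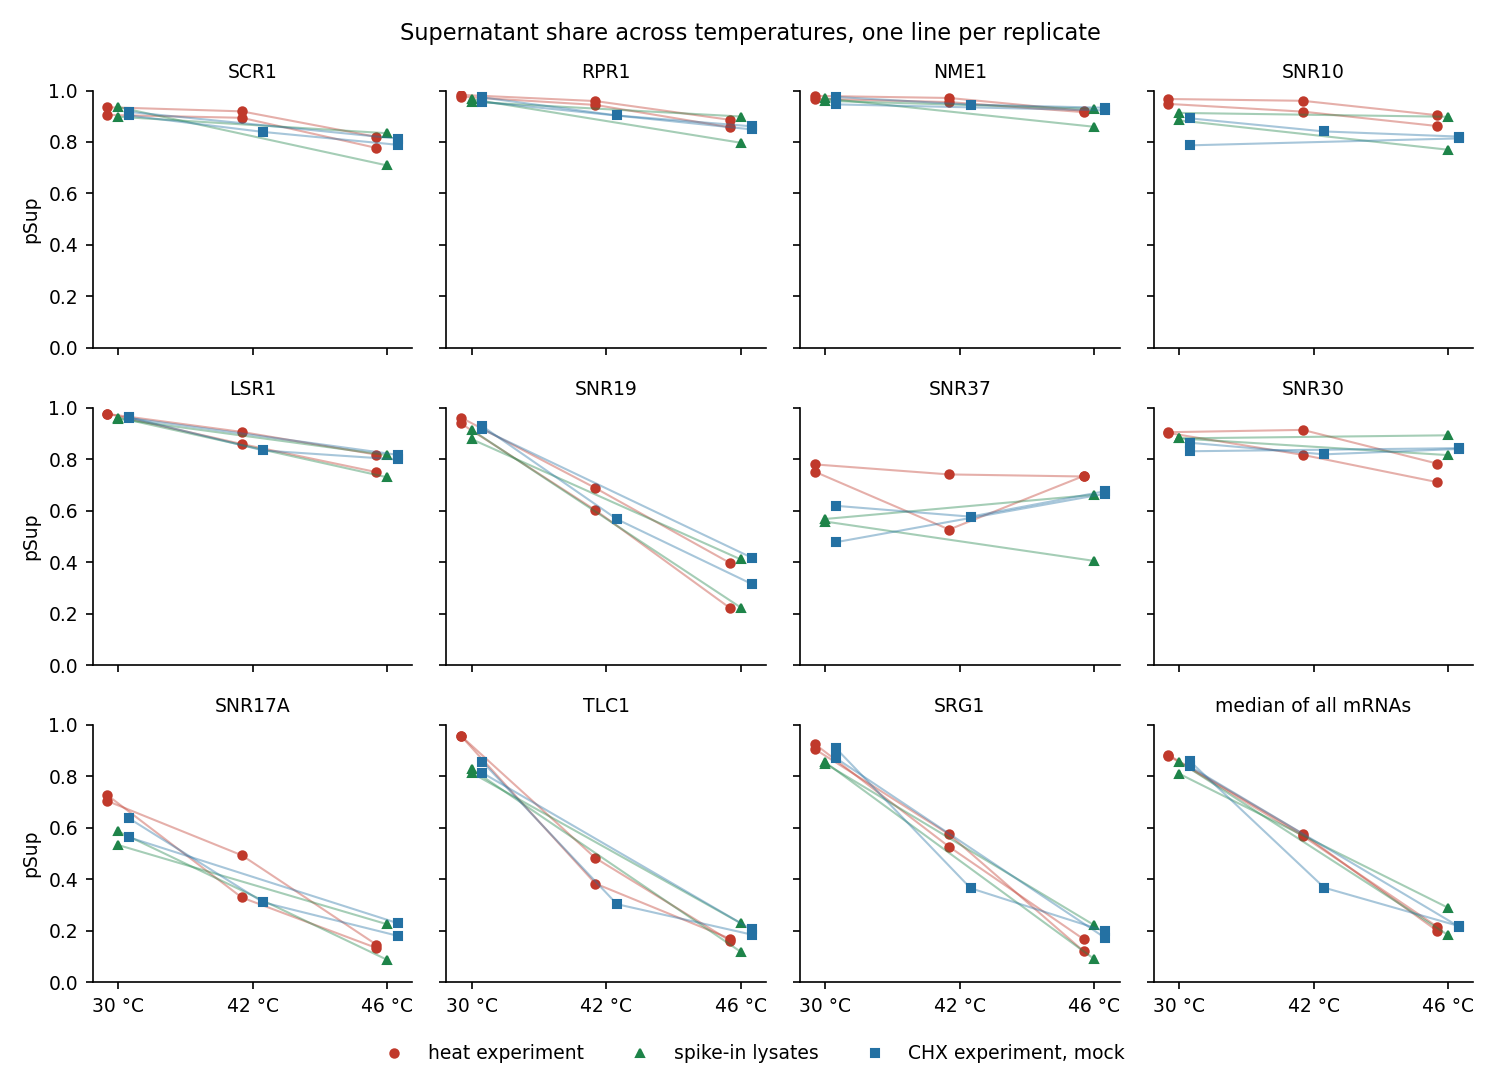
Supernatant share (pSup, 0 to 1) at 30°C, 42°C and 46°C, each line joining lysates of the same replicate number in the heat experiment (red circles), the spike-in lysates (green triangles) and the CHX experiment's mock arm (blue squares). SCR1, RPR1, NME1, SNR10, LSR1 and SNR30 stay above 0.70 at 46°C, while SNR17A, TLC1 and SRG1 reach 0.230 or less beside a median mRNA at 0.184 to 0.290.

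Box H/ACA RNAs are longer than box C/D RNAs, so the classes were also compared between 160 and 260 nt, where both have members. There 21 of 21 H/ACA and 5 of 5 C/D RNAs were higher in the spike-in lysates, with medians of 2.03 and 1.23. In the mock arm of the CHX experiment the medians were 2.63 and 1.73, with the same counts.

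Gradients of heat-shocked cells were examined by the log odds of the heavy fractions (monosome and polysome) against Free. The study's methods warn that condensed RNA of stressed cells may collect below the gradient, which makes absolute shares hard to measure. Shares here are of the recovered fractions. In heat, azide and ethanol, loss from the gradient therefore cannot be told apart from movement between fractions. At 46°C 45 of 85 RNAs had a higher heavy share and 7 a lower one, where 27% and 18.5% of all features did. Among them 26 of 33 box C/D RNAs and 12 of 14 other ncRNAs were higher, against 2 of 29 box H/ACA RNAs. With at least 100 counts per lysate 29 RNAs were called. TLC1 had 0.576 and 0.512 in the Free fraction at 46°C, against 0.833 and 0.839 at 30°C (heavy log odds 1.45 ± 0.18, adjusted p = 7.36e-14). SRG1 had 0.311 and 0.265 in Free at 46°C, against 0.682 and 0.677 at 30°C (1.66 ± 0.18, adjusted p = 5.37e-19). ICR1 had 0.100 and 0.0881 at 46°C, against 0.347 and 0.358 at 30°C (1.65 ± 0.18, adjusted p = 1.24e-18). Each of these long RNAs had a lower share in the Free fraction in both heat lysates.

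The Free share of other RNAs changed the opposite way. SNR30 had 0.953 and 0.953 in Free at 46°C, against 0.749 and 0.742 at 30°C (-1.93 ± 0.16, adjusted p = 2.35e-30). SNR190 had 0.877 and 0.887, against 0.718 and 0.773 (-0.93 ± 0.17, adjusted p = 6.28e-07), and SNR17A had 0.625 and 0.604, against 0.450 and 0.456 (-0.66 ± 0.14, adjusted p = 2.25e-05). U3 and SNR30 are needed for 18S rRNA processing, and for all 3 RNAs the heat and control lysates did not overlap. SCR1 stayed at 0.942 and 0.934 in Free at 46°C, against 0.965 and 0.969 at 30°C (0.66 ± 0.11, adjusted p = 8.41e-08), a small move in share.

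At 42°C 17 of 85 RNAs were heavier and 14 lighter, where 3.45% and 50.4% of all features were. Centring on the median mRNA, which itself became lighter, raised the number of calls to 51. Without the second 30°C lysate 16 RNAs were called. SNR30 had 0.900 and 0.921 in Free at 42°C, against 0.749 and 0.742 at 30°C (-1.25 ± 0.16, adjusted p = 8.81e-13), and TLC1 had 0.769 and 0.724, against 0.833 and 0.839 (0.55 ± 0.18, adjusted p = 0.00706). SNR30 and TLC1 thus moved in the same directions at both temperatures, which share the 30°C lysates. SNR190 had 0.829 and 0.817, against 0.718 and 0.773 (-0.46 ± 0.17, adjusted p = 0.0169), and turned to 0.0159 when centred on the median mRNA.

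**Figure D3:**
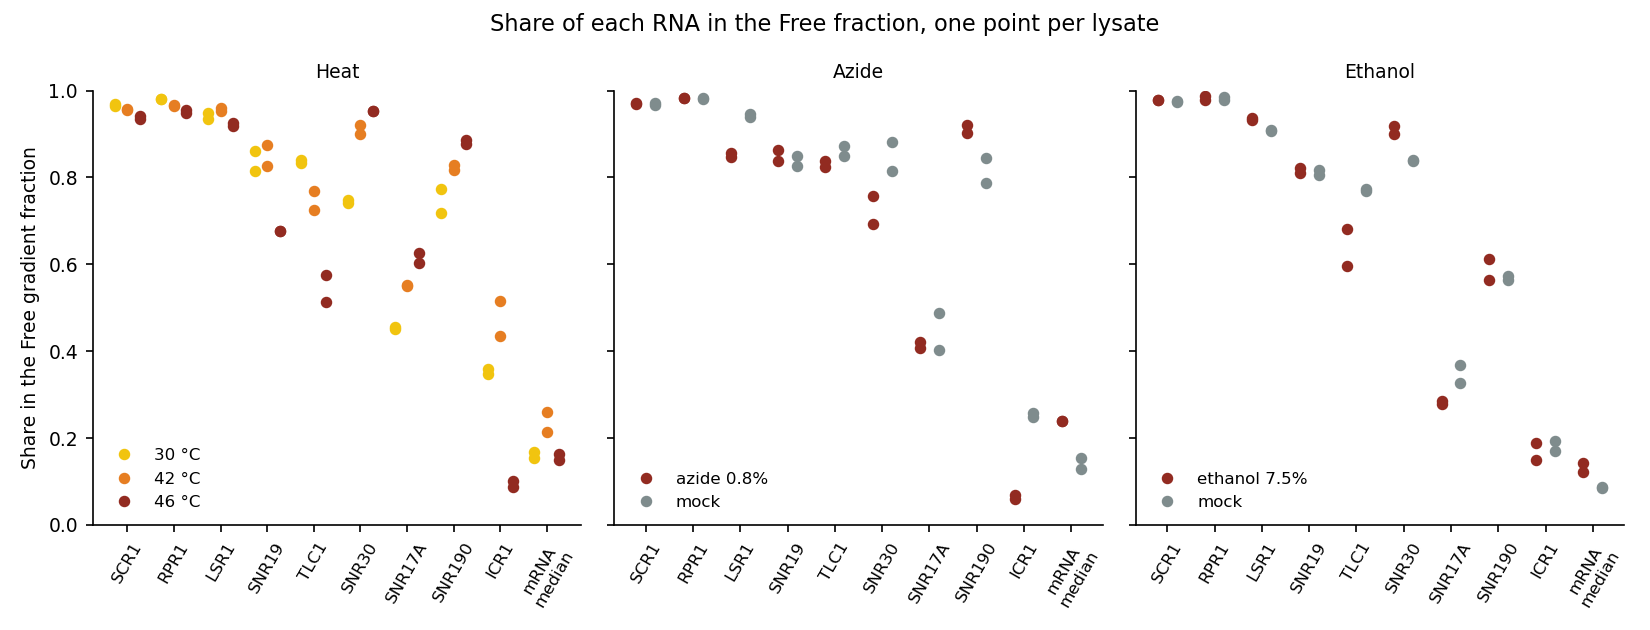
Share of selected noncoding RNAs and of the median mRNA in the Free gradient fraction (0 to 1) in the heat, azide and ethanol Polysome-seq experiments, one point per lysate. SCR1 and RPR1 stay above 0.93 in every lysate, TLC1 reaches 0.512 at 46°C, and SNR30 rises to 0.953 at 46°C.

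Sodium azide, which blocks respiration, moved noncoding RNAs towards the supernatant relative to mRNAs in nearly every class. At 0.5% azide 69 of 84 RNAs were higher and 0 lower, where 22.7% and 18.4% of all features were. By class these were 24 of 33 box C/D (median 0.812), 28 of 29 box H/ACA (0.763), 3 of 5 snRNAs and 10 of 13 other ncRNAs. The median mRNA had a pSup of 0.785 and 0.797 in azide, against 0.849 and 0.862 in mock. SNR17A had 0.707 and 0.685 in azide, against 0.420 and 0.442 in mock (1.56 ± 0.06, adjusted p = 3.65e-11), and SNR17B had 0.709 and 0.701, against 0.417 and 0.469 (1.55 ± 0.05, adjusted p = 1.48e-11). SNR19 had 0.927 and 0.914, against 0.753 and 0.803 (1.64 ± 0.07, adjusted p = 1.65e-10). The U1 and U3 RNAs therefore rose in pSup itself, with no overlap between lysates. TLC1 had 0.834 and 0.808, against 0.839 and 0.867 (0.21 ± 0.07, adjusted p = 0.0267).

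At 0.8% azide 68 of 94 RNAs were higher and 0 lower, where 18.7% and 9.1% of all features were. The class medians were 1.11 for box C/D (25 of 40 higher), 1.16 for box H/ACA (28 of 29), 1.34 for snRNAs (4 of 6) and 0.604 for other ncRNAs (8 of 15). The mRNA median was 0.663 and 0.590 in azide, against 0.810 and 0.785 in mock. SNR63, a C/D guide, had 0.754 and 0.834 in azide, against 0.559 and 0.518 in mock (2.07 ± 0.21, adjusted p = 0.000364). SNR34 (chromosome XII, 899180 to 899382, plus strand) had 0.509 and 0.565, against 0.315 and 0.225 (2.01 ± 0.17, adjusted p = 0.000261). SNR19 had 0.923 and 0.935, against 0.846 and 0.733 (2.07 ± 0.21, adjusted p = 0.000364), and SNR17A had 0.670 and 0.568, against 0.505 and 0.362 (1.62 ± 0.24, adjusted p = 0.00188). U1, U3 and both guides were again higher in every azide lysate than in every mock lysate. TLC1 missed the threshold (0.79 ± 0.27, adjusted p = 0.0555). The 2 azide doses came from separate experiments with their own mocks and protocols, so they are given side by side.

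In absolute log odds 37 of 84 RNAs were higher at 0.5% azide and 7 lower, where 2.42% and 66.3% of all features were. At 0.8% azide 23 of 94 were higher and 3 lower, where 0.656% and 78.1% were. Scaling the fractions by the NanoLuc spike-in in place of the mixing ratio left 0 calls among these RNAs at 0.8%.

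In the azide gradients 33 of 92 RNAs were heavier and 7 lighter, where 13.4% and 56.8% of all features were, and 75 were called after centring on the median mRNA. Of 38 box C/D RNAs 18 were heavier and 2 lighter, of 29 box H/ACA RNAs 2 and 5, and of 15 other ncRNAs 9 and 0. ICR1 had 0.0589 and 0.0685 in Free in azide, against 0.258 and 0.249 in mock (1.60 ± 0.15, adjusted p = 1.26e-10). SNR63 had 0.838 and 0.812 in Free, against 0.593 and 0.608 (-1.15 ± 0.24, adjusted p = 0.000108), and SNR190 had 0.921 and 0.902, against 0.787 and 0.844 (-0.84 ± 0.26, adjusted p = 0.00559). SNR63 thus had a higher share in the lighter material in both assays. SNR30 had 0.692 and 0.756 in Free in azide, against 0.814 and 0.881 in mock, a change that missed the threshold (0.77 ± 0.36, adjusted p = 0.0581) and was opposite in sign to its change in heat.

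In ethanol the medians of the snoRNA classes lay apart from 7.5% on, a difference that was not tested. With 5% ethanol 3 of 90 RNAs were higher relative to mRNAs and 2 lower, where 1.66% and 1.73% of all features were. The total was 13 without the second 5% lysate and 11 when centred on mRNAs under 1000 nt. The H/ACA guide SNR3 had a pSup of 0.722 and 0.756 in 5% ethanol, against 0.671 and 0.596 in mock (0.59 ± 0.10, adjusted p = 0.00352). TLC1 had 0.874 and 0.897, against 0.896 and 0.905 (-0.05 ± 0.09, adjusted p = 0.831). For the median mRNA pSup was 0.863 and 0.885 in 5% ethanol, against 0.895 and 0.874 in mock.

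With 7.5% ethanol 42 of 92 RNAs were higher and 19 lower, where 30.3% and 31.5% of all features were. By class, 27 of 29 box H/ACA RNAs were higher and 0 lower (median 0.644), 5 of 39 box C/D RNAs higher and 12 lower (-0.268), 5 of 6 snRNAs higher, and 2 of 14 other ncRNAs higher and 6 lower. The share of box C/D RNAs that were lower was near that of all features. Centred on mRNAs under 1000 nt the calls were 21 higher and 28 lower. TLC1 had 0.623 and 0.605 in 7.5% ethanol, against 0.885 and 0.901 in mock (-1.20 ± 0.07, adjusted p = 2.02e-12), while the median mRNA had 0.816 and 0.788, against 0.852 and 0.879. SNR30 had 0.914 and 0.903, against 0.840 and 0.860 (1.02 ± 0.10, adjusted p = 7.58e-09). TLC1 fell far below the mRNAs, and SNR30 rose in pSup itself. Gradients at the same dose gave TLC1 0.597 and 0.681 in Free, against 0.768 and 0.774 in mock (heavy log odds 0.64 ± 0.17, adjusted p = 0.00532), and SNR30 0.918 and 0.900, against 0.839 and 0.837 (-0.66 ± 0.16, adjusted p = 0.00299). Over all RNAs in these gradients 9 of 91 were heavier and 2 lighter, where 2.56% and 43.8% of all features were. The total was 46 after centring and 5 to 31 when single lysates were left out.

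With 10% ethanol 23 of 90 RNAs were higher and 13 lower, where 15.8% and 8.89% of all features were, and 23 were called in all without the first mock lysate. Of 29 box H/ACA RNAs 12 were higher and 0 lower (median 0.383), of 37 box C/D RNAs 4 higher and 11 lower (-0.512), and of 6 snRNAs 5 higher (0.811). TLC1 had 0.466 and 0.509 in 10% ethanol, against 0.896 and 0.905 in the mock shared with 5% (-1.39 ± 0.09, adjusted p = 4.86e-07). The C/D guide SNR67 had 0.354 and 0.353, against 0.823 and 0.726 (-1 ± 0.16, adjusted p = 0.00107). SNR128 had 0.650 and 0.579, against 0.604 and 0.515 (1.09 ± 0.17, adjusted p = 0.000743), so U14 held its pSup while TLC1 and SNR67 lost much of theirs. For the median mRNA pSup was 0.758 and 0.772, against 0.895 and 0.874.

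With 15% ethanol 30 of 87 RNAs were higher and 30 lower, where 18.8% and 17.5% of all features were. The median mRNA had 0.368 and 0.356 in 15% ethanol, against 0.913 and 0.894 in mock. Of 29 box H/ACA RNAs 27 were higher and 0 lower (median 1.59), while of 35 box C/D RNAs 0 were higher and 18 lower (-0.623). Other ncRNAs had 2 higher and 8 lower of 14. The H/ACA guide SNR42 (chromosome XI, 559016 to 559366, minus strand) had 0.840 and 0.893 in 15% ethanol, against 0.914 and 0.899 in mock (2.43 ± 0.13, adjusted p = 1.62e-06). SCR1 had 0.769 and 0.813, against 0.948 and 0.936 (1.36 ± 0.10, adjusted p = 7.86e-06). Both stayed soluble in lysates where the median mRNA was mostly pelleted.

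The falls with 15% ethanol included spliceosomal RNAs. TLC1 had 0.158 and 0.143 in 15% ethanol, against 0.954 and 0.942 in mock (-1.83 ± 0.07, adjusted p = 3.59e-07). SNR19 had 0.140 and 0.222, against 0.918 and 0.908 (-1.08 ± 0.15, adjusted p = 0.000323), and LSR1 had 0.543 and 0.593, against 0.977 and 0.971 (-0.55 ± 0.09, adjusted p = 0.00101). U1 thus fell below mRNAs in 15% ethanol, whereas in azide it had risen above them. SNR18 was at -1.49 ± 0.14 (adjusted p = 3e-05), with counts that may hold reads of its host EFB1. SNR128 had 0.00999 and 0.0868, against 0.384 and 0.354 (-0.13 ± 0.50, adjusted p = 0.867), and its sign depended on the first 15% lysate, without which it was 1.02. In absolute terms 86 of 87 RNAs were lower, where 100.0% of all features were.

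Within the 160 to 260 nt window the box H/ACA medians lay above the box C/D medians in ethanol. At 15% the medians were 1.63 for box H/ACA (19 of 21 higher) and -0.12 for box C/D (0 of 5 higher, 1 lower). At 7.5% they were 0.65 (20 of 21 higher) and 0.15 (2 of 5), and at 10% 0.49 (10 of 21) and 0.06 (1 of 5). The ranges did not overlap at 15% (0.32 to 2.47 for box H/ACA and -0.63 to 0.14 for box C/D). They overlapped at 7.5% (0.28 to 0.96 and -0.17 to 0.93) and at 10% (0.06 to 1.16 and -0.3 to 0.38). In 0.5% azide they were closer, at 0.90 (20 of 21) and 0.60 (4 of 5). The difference between the classes was not tested.

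**Figure D4:**
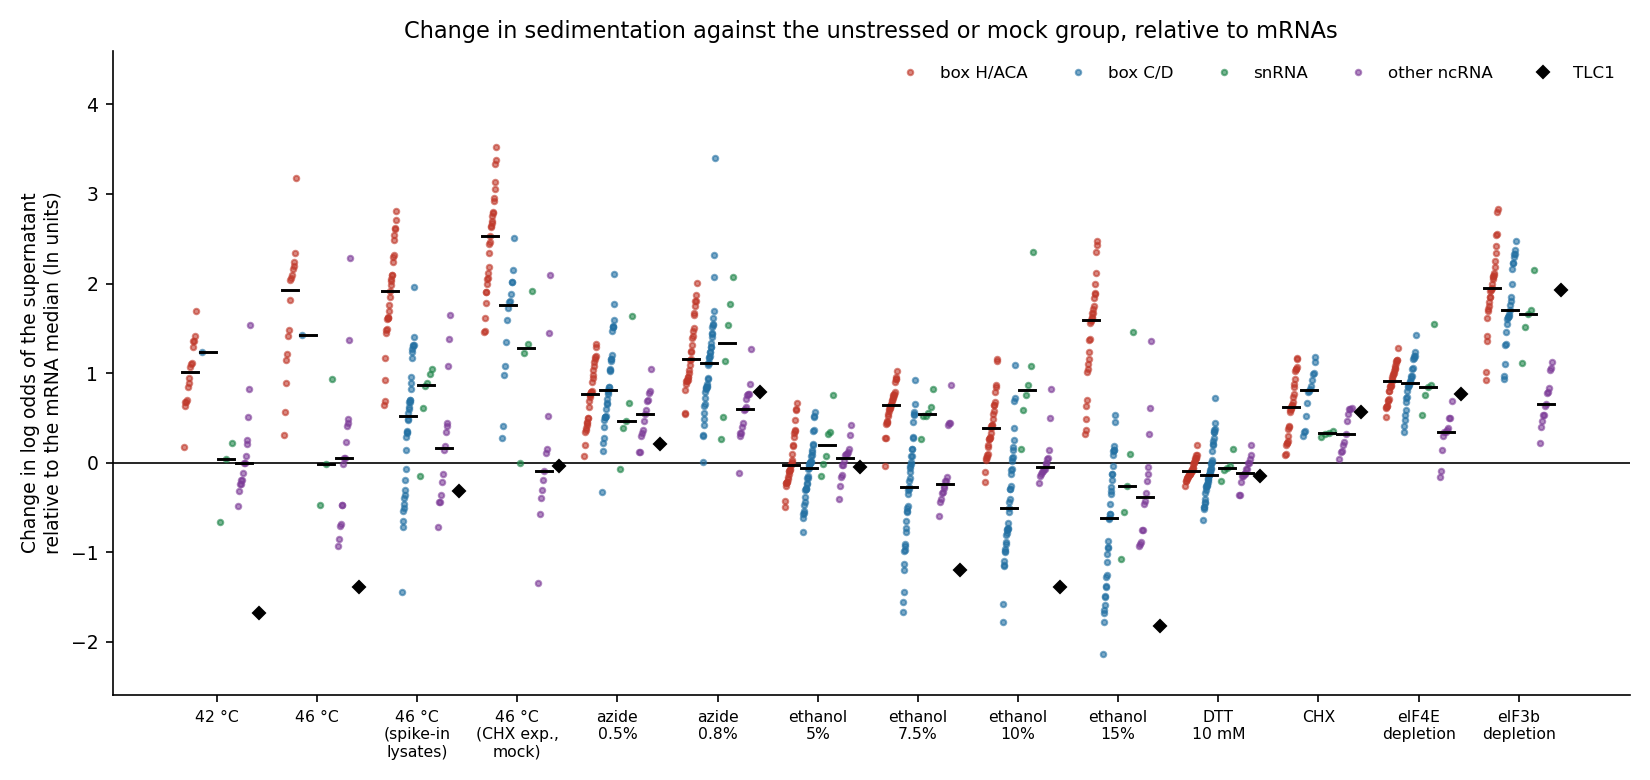
Change in log odds of the supernatant relative to the median mRNA (ln units, 0 = same change as mRNAs) for every tested noncoding RNA by class in 14 comparisons; points are RNAs, bars class medians and the diamond TLC1. Box H/ACA RNAs lie above 0 in heat and at 15% ethanol (median 1.59) where box C/D RNAs lie lower (-0.623), all classes lie above 0 after eIF3b depletion, and TLC1 lies at -1.83 with 15% ethanol.

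DTT, a reducing agent, gave a single call. Relative to mRNAs 0 of 94 RNAs were higher and 1 lower, where 0.178% and 0.606% of all features were, with 5 and 15 at an unadjusted p under 0.05. The C/D guide SNR57 had 0.803 and 0.818 in DTT, against 0.861 and 0.894 in mock (-0.49 ± 0.10, adjusted p = 0.0415), and the median mRNA 0.885 and 0.877, against 0.871 and 0.898. The number of calls was 8 without the first mock lysate, 19 without the second, and 4 without the second DTT lysate.

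CHX, which arrests elongating ribosomes, gave 0 calls among 62 RNAs at 30°C in limma, where 0.0% of all features were called, although 33 were higher and 0 lower at an unadjusted p under 0.05. The count was 7 without the first mock lysate, 29 without the second, and 18 when centred on mRNAs under 1000 nt. SNR17A had 0.761 and 0.822 in CHX, against 0.564 and 0.638 in mock, the largest of the 3 changes given here (1.25 ± 0.16, adjusted p = 0.0542). TLC1 (0.57 ± 0.13, adjusted p = 0.0898) and SCR1 (0.55 ± 0.25, adjusted p = 0.262) also missed the threshold. The lysates of SNR17A did not overlap. The interaction of CHX and 46°C was likewise 0 of 62, with 0 higher and 42 lower at an unadjusted p under 0.05, and 20 were called without the second 30°C lysate of the CHX arm.

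In absolute log odds CHX pretreatment did change the response of long ncRNAs to 46°C. The interaction was higher for 6 of 62 RNAs and lower for 0, where 72.5% and 0.0187% of all features were. All 6 were among the 11 other ncRNAs tested (class median 0.688), while the medians were -0.146 for box H/ACA, -0.0893 for box C/D and 0.882 for mRNAs. SRG1 had 0.383 and 0.317 with CHX at 46°C and 0.872 and 0.869 with CHX at 30°C, against 0.173 and 0.199 in mock at 46°C and 0.871 and 0.909 in mock at 30°C (1.05 ± 0.25, adjusted p = 0.00914). The other 5 were RME2, GAL4 lncRNA, GAL10-ncRNA, ICR1 and PHO84 AS RNA, at 0.548 to 1.16. SRG1 and these RNAs thus pelleted less with CHX, as most mRNAs did, and box H/ACA and C/D RNAs had 0 calls. Scaled by NanoLuc in place of the mixing ratio 0 RNAs were called, with SRG1 at 0.306. The count was 2 without the first mock 46°C, the first CHX 46°C, or either CHX 30°C lysate, and 20 without the second mock 30°C lysate.

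Depletion of eIF3b, a subunit of the factor that joins mRNA to the small ribosomal subunit, shifted nearly all noncoding RNAs. Relative to mRNAs 72 of 76 were higher and 0 lower, where 21.6% and 20.1% of all features were. The class medians were 1.95 for box H/ACA (29 of 29), 1.7 for box C/D (24 of 25), 1.66 for snRNAs (5 of 5) and 0.658 for other ncRNAs (10 of 13). The median mRNA had a pSup of 0.641 and 0.565 in depleted cells, against 0.815 and 0.777 in mock. SNR30 (YNCL0003W, chromosome XII, 198784 to 199389, plus strand) had 0.974 and 0.947 in depleted cells, against 0.816 and 0.775 in mock (2.83 ± 0.14, adjusted p = 4.39e-09). SNR11 had 0.651 and 0.629, against 0.241 and 0.195 (2.80 ± 0.13, adjusted p = 4.39e-09), and SNR17A had 0.768 and 0.712, against 0.435 and 0.343 (2.45 ± 0.12, adjusted p = 4.39e-09). These 3 rose in pSup in both depleted lysates while the median mRNA fell.

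TLC1 rose as well, to 0.903 and 0.873 in depleted cells, against 0.783 and 0.714 in mock (1.93 ± 0.14, adjusted p = 1.34e-07). SNR19 had 0.912 and 0.900, against 0.771 and 0.714 (2.15 ± 0.11, adjusted p = 6.09e-09). ICR1 had 0.406 and 0.355, against 0.471 and 0.368 (0.78 ± 0.10, adjusted p = 4.22e-05), so its relative gain was a smaller fall than that of mRNAs. In absolute log odds 47 of 76 RNAs were higher and 3 lower, where 0.922% and 87.7% of all features were.

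Depletion of eIF4E gave a shift of the same sign. Relative to mRNAs 60 of 75 RNAs were higher and 0 lower, where 4.52% and 7.36% of all features were, and 39 were called without the first mock lysate at 30°C. The class medians were 0.916 for box H/ACA (29 of 29), 0.889 for box C/D (17 of 26), 0.846 for snRNAs (5 of 5) and 0.344 for other ncRNAs (5 of 11). SNR30 had 0.904 and 0.934 in depleted cells, against 0.784 and 0.844 in mock (1.28 ± 0.16, adjusted p = 4.74e-05), and SNR17A 0.599 and 0.677, against 0.408 and 0.491 (1.1 ± 0.14, adjusted p = 7.68e-05). TLC1 had 0.805 and 0.856, against 0.718 and 0.798 (0.77 ± 0.12, adjusted p = 0.000288). The median mRNA had 0.706 and 0.713, against 0.761 and 0.781. In absolute log odds limma called 0 of 75, with 35 higher and 0 lower at an unadjusted p under 0.05 and 1 call without the trend, where 0.0% of all features were called.

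Whether heat acted differently in depleted cells was tested by the interaction with 46°C. Under eIF3b depletion the relative change was higher for 44 of 76 RNAs and lower for 0, where 20.0% and 14.5% of all features were called. In absolute log odds it was higher for 12 and lower for 3, where 0.719% and 30.4% of all features were. That total was 2 without the first and 6 without the second depleted 46°C lysate, 4 without the second depleted 30°C lysate, 7 and 4 without the first and the second mock 30°C lysate, and 9 without the second mock 46°C lysate. SCR1 had a pSup of 0.932 and 0.928 in depleted cells at 46°C and 0.958 and 0.926 in depleted cells at 30°C, against 0.836 and 0.777 in mock at 46°C and 0.938 and 0.936 in mock at 30°C (1.59 ± 0.17, adjusted p = 1.46e-05). For the median mRNA pSup was 0.0698 and 0.0766 in depleted cells at 46°C, against 0.291 and 0.235 in mock at 46°C. SCR1 thus stayed soluble in lysates where mRNAs were pelleted furthest. SNR13, a C/D guide (chromosome IV, 1402919 to 1403042, plus strand), had 0.587 and 0.546 in depleted cells at 46°C, against 0.280 and 0.104 in mock at 46°C (1.52 ± 0.38, adjusted p = 0.0071). Under eIF4E depletion 9 of 75 were higher and 0 lower, where 3.85% and 1.97% of all features were. That number was 2 without the first depleted 30°C lysate, 1 without the second mock 30°C lysate, 3 without the second mock 46°C lysate, and 4 when centred on mRNAs under 1000 nt. SNR8, an H/ACA guide, changed by 0.92 ± 0.21 (adjusted p = 0.0166).

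Total abundance was examined last, in the unfractionated libraries, with edgeR's quasi-likelihood test and Benjamini-Hochberg adjustment over all features. Trimmed-mean (TMM) scaling sets the typical mRNA to no change. Scaling by the NanoLuc spike-in, which was added in all Sed-seq experiments but the heat experiment, sets the added RNA to no change and was chosen after seeing the data. It moved all log2 fold changes by 1.59 in CHX, by -0.656 to -0.381 in ethanol, by -0.568 and -0.563 in azide, by -0.503 in eIF4E depletion, by 0.301 in eIF3b depletion and by 0.18 in DTT. Changes below are by TMM, relative to the typical mRNA, and less RNA per cell and fewer cells cannot be told apart by either scaling. CPM are estimated counts scaled to library size.

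CHX set the classes apart. By TMM 59 of 91 RNAs fell and 11 rose, where 28.8% and 31.2% of all features did. The 59 included all 29 box H/ACA RNAs (median -1.45) and 20 of 38 box C/D RNAs, whereas 10 of 15 other ncRNAs rose and 2 fell (median 1.32). SCR1 fell to 9826 and 9355 CPM in CHX, against 28850 and 26990 CPM in mock (-1.54 ± 0.12, adjusted p = 8.78e-05), and TLC1 to 125.4 and 98.1 CPM, against 296.6 and 297.9 CPM (-1.41 ± 0.15, adjusted p = 0.000243). SRG1 rose to 84.9 and 66.6 CPM in CHX, against 27.4 and 24.8 CPM in mock (1.53 ± 0.18, adjusted p = 0.00037). It overlaps SER3 on the same strand, so its reads may be shared. RME3, antisense to ZIP2, rose to 15.0 and 14.5 CPM, against 4.73 and 4.97 CPM (1.60 ± 0.19, adjusted p = 0.000349). By the spike-in the falls vanished: 24 RNAs rose and 0 fell, SCR1 was at 0.0402 and TLC1 at 0.147, and the median mRNA was at 1.66 instead of 0.0724. The 2 scalings thus differ on whether stable noncoding RNAs fell or mRNAs rose, and in both the box C/D, box H/ACA and snRNA medians, SCR1 and TLC1 lay below the median mRNA. The median of the other ncRNAs lay above it in both (2.89 by the spike-in).

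**Figure D5:**
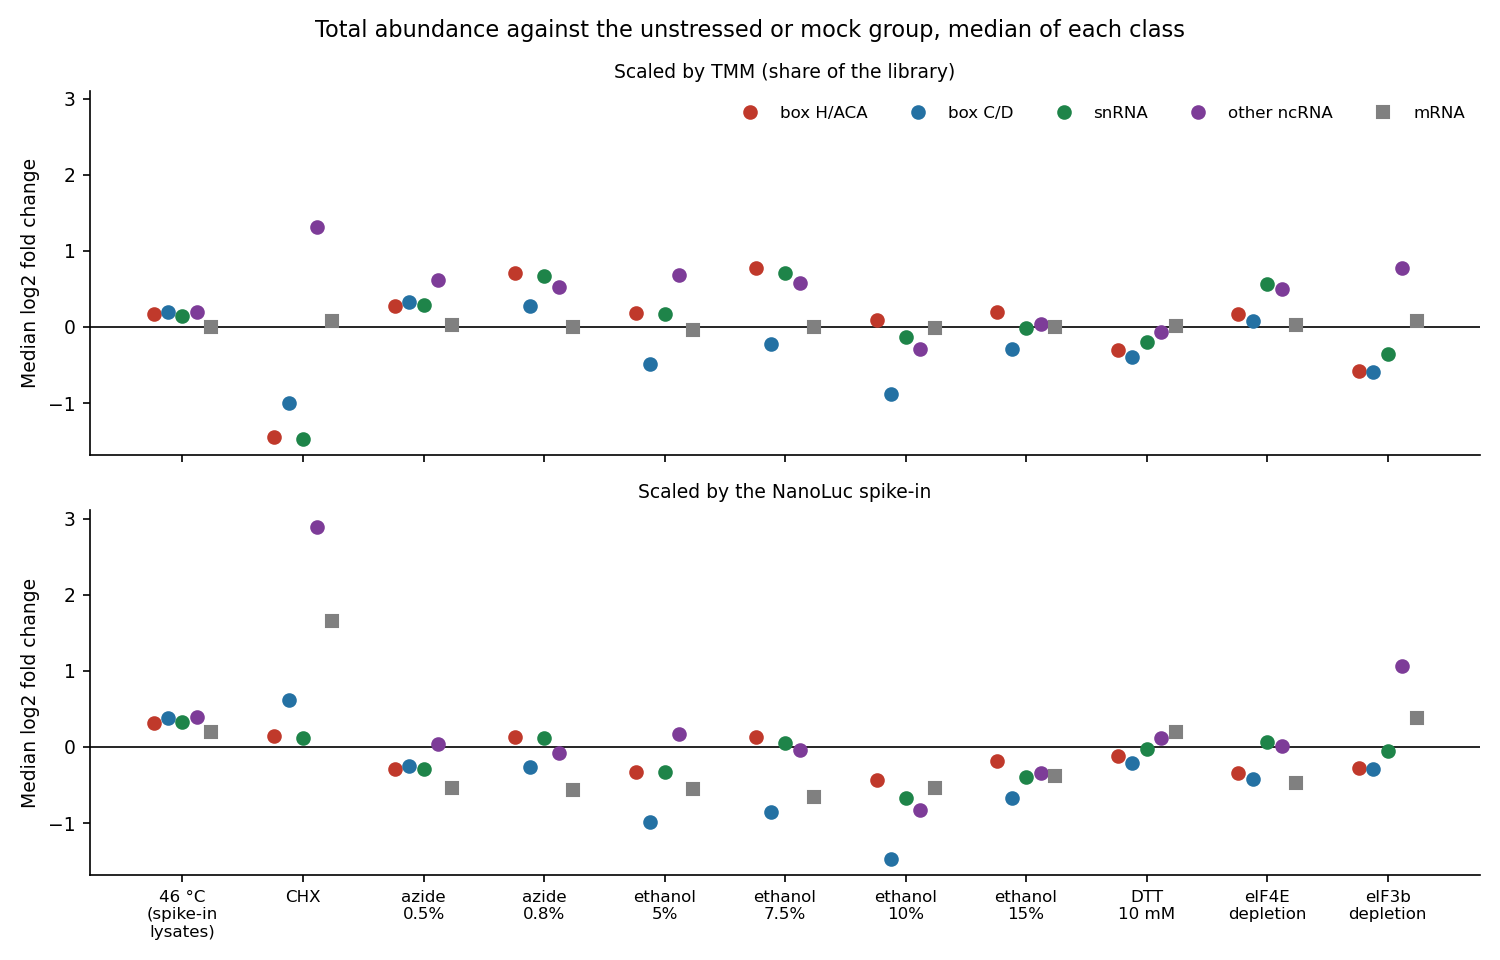
Median log2 fold change of Total abundance by class in 11 comparisons, scaled by TMM (upper panel) and by the NanoLuc spike-in (lower panel). In CHX the box H/ACA median is -1.45 by TMM, and the median mRNA moves to 1.66 by the spike-in.

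With eIF3b depletion most snoRNAs fell relative to the typical mRNA and several long RNAs rose. By TMM 62 of 94 fell and 10 rose, where 38.9% and 41.8% of all features did. The medians were -0.59 for box C/D and -0.573 for box H/ACA RNAs, against -0.917 for the 172 mRNAs under 500 nt, so short mRNAs fell at least as far. SNR13 fell to 28.8 and 37 CPM in depleted cells, against 105.7 and 99 CPM in mock (-1.66 ± 0.14, adjusted p = 4e-07). TLC1 fell to 164.1 and 176.7 CPM, against 313.4 and 313.7 CPM (-0.88 ± 0.07, adjusted p = 2.24e-07), and SRG1 to 39 and 40.2 CPM, against 82.4 and 79.1 CPM (-1.03 ± 0.08, adjusted p = 2.49e-07). GAL4 lncRNA, antisense to GAL4, rose to 99.7 and 94.9 CPM, against 23.3 and 22.9 CPM (2.07 ± 0.09, adjusted p = 1.09e-09). ICR1 rose to 120.4 and 138.7 CPM, against 47.7 and 54 CPM (1.34 ± 0.13, adjusted p = 1.61e-06), and RME3 to 40.4 and 33.8 CPM, against 8.48 and 12.8 CPM (1.82 ± 0.20, adjusted p = 2.98e-06). By the spike-in 10 rose and 23 fell. With eIF4E depletion 19 of 94 rose and 3 fell, where 30.2% and 28.7% of all features did, and 13 were called in all without the second depleted lysate. TBRT, antisense to TAT1, rose to 19.5 and 22 CPM in depleted cells, against 3.06 and 3.45 CPM in mock (2.68 ± 0.18, adjusted p = 1.12e-07).

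In azide antisense RNAs were among the larger rises. At 0.5% 65 of 94 RNAs rose and 3 fell by TMM, where 36.9% and 34.5% of all features did, with 37 called in all without the first mock lysate and 8 higher and 16 lower by the spike-in. RME3 rose to 28.7 and 23.3 CPM in azide, against 4.83 and 6.41 CPM in mock (2.20 ± 0.19, adjusted p = 1.84e-06), and GAL4 lncRNA to 46.9 and 46.2 CPM, against 14.2 and 10.3 CPM (1.93 ± 0.14, adjusted p = 4.35e-07). At 0.8% 58 of 99 rose and 5 fell, where 21.8% and 18.9% of all features did, and 4 and 10 by the spike-in. RME3 rose to 16.2 and 15.7 CPM, against 5.77 and 4.27 CPM (1.69 ± 0.17, adjusted p = 0.000439). SUT169, antisense to SPS100, had 12.5 and 21.9 CPM, against 3.18 and 2.69 CPM (2.57 ± 0.29, adjusted p = 0.000762).

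In ethanol the numbers that rose and fell by TMM were 34 and 16 of 99 at 5% (33.2% and 39% of all features), 54 and 9 of 99 at 7.5% (29.4% and 29.4%), 16 and 33 of 99 at 10% (26.7% and 26.5%), and 29 and 11 of 95 at 15% (13.1% and 10.1%). By the spike-in they were 4 and 25, 0 and 7, 0 and 38, and 0 and 12. At 15% 22 were called by DESeq2 and 25 without the first mock lysate. The medians of box C/D RNAs from 5% to 15% were -0.486, -0.219, -0.883 and -0.288, below those of box H/ACA RNAs at each dose (0.18, 0.771, 0.0873 and 0.2). By the spike-in the box H/ACA medians were below 0 at 5%, 10% and 15%. The mean insert of these Total libraries was 184.6 to 226.1 nt, longer than most box C/D RNAs, and its part in this difference was not tested. The C/D guide SNR57 fell at every dose: to 9.44 and 8.92 CPM at 5%, against 16.7 and 15.4 CPM in mock (-0.81 ± 0.12, adjusted p = 0.000103), by 0.86 ± 0.16 at 7.5% (adjusted p = 0.00137), to 5.45 and 5.67 CPM at 10% (-1.53 ± 0.13, adjusted p = 2.39e-06), and by 0.96 ± 0.14 at 15% (adjusted p = 3.77e-05). SRG1 rose to 84.2 and 85.2 CPM at 5%, against 31.3 and 31.8 CPM in mock (1.42 ± 0.07, adjusted p = 9.25e-09), and to 69.2 and 71.9 CPM at 7.5%, against 27.6 and 32 CPM (1.24 ± 0.09, adjusted p = 3.99e-06). IRT1 rose to 6 and 5.29 CPM at 7.5%, against 1.65 and 1.99 CPM (1.64 ± 0.21, adjusted p = 0.000148).

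The number of levels called after 10 min of heat differed between experiments. In the heat experiment at 42°C 11 of 43 RNAs rose and 0 fell, where 6.04% and 1.27% of all features did. With the replicate number as a block 19 were called, and without single lysates 0 to 8, with 0 without the second 30°C or the second 42°C lysate and 2 without the first 42°C lysate. SNR35, an H/ACA guide, rose to 90.7 and 94.8 CPM at 42°C, against 69.6 and 58.2 CPM at 30°C (0.54 ± 0.10, adjusted p = 0.0104). At 46°C edgeR called 0 of 43 there, where 0.401% of all features rose and 0.0364% fell, with 3 and 3 at an unadjusted p under 0.05 and 2 calls without the first 46°C lysate. In the CHX experiment's mock arm it called 0 of 91, where 0.418% rose and 0.557% fell, with 11 and 1 at an unadjusted p under 0.05 and 4 calls with the replicate block. In the spike-in lysates 27 of 97 rose and 2 fell at 46°C, where 13.1% and 13.5% of all features did, with 58 called without the first 30°C lysate and 1 by the spike-in. ICR1, 1 of those that fell, had 26.8 and 26 CPM at 46°C, against 32.3 and 32.9 CPM at 30°C (-0.30 ± 0.07, adjusted p = 0.00218). DTT lowered 58 of 94 RNAs and raised 2, where 26.8% and 25% of all features fell and rose, with 5 lower and 1 higher by the spike-in. The median of these RNAs was -0.283, close to that of the 175 mRNAs under 500 nt (-0.295). SNR41, a C/D guide, fell to 14.9 and 15.7 CPM in DTT, against 24.7 and 28.9 CPM in mock (-0.80 ± 0.11, adjusted p = 9.71e-05).

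The mRNAs of the proteins that bind these RNAs were followed in the same TMM fits. The 4 C/D core proteins (NOP1, NOP56, NOP58 and SNU13) and the 4 H/ACA core proteins (CBF5, NHP2, NOP10 and GAR1) all fell with eIF3b depletion (medians -1.91 and -1.78), 0.5% azide (-1.33 and -1.03), 5% ethanol (-1.35 and -1.07), CHX (-0.588 and -0.561), DTT (-0.413 and -0.423) and eIF4E depletion (-0.363 and -0.359). Of all features 38.9%, 34.5%, 39%, 28.8%, 26.8% and 28.7% fell in these comparisons, in that order. All 4 C/D and all 4 H/ACA mRNAs rose at 10% ethanol (0.457 and 0.429), where 26.7% of all features did. The spike-in shifts of 1.59 in CHX and -0.526 at 10% ethanol exceed these changes, so their direction there holds only relative to the typical mRNA. Of 11 RNase P and MRP subunits 7 rose and 1 fell in CHX (median 0.765), where 31.2% and 28.8% of all features did. With eIF3b depletion 6 rose and 3 fell (0.458), where 41.8% and 38.9% of all features did. The 3 EST genes of telomerase all rose in CHX (0.573), where 31.2% of all features rose and TLC1 fell by TMM. Of 6 signal recognition particle proteins all fell at 5% ethanol (-0.396), where 39% of all features did. With eIF3b depletion 4 of them fell (-0.625), where 38.9% of all features did. Further lists, of snoRNA-protein assembly, the Sm and Lsm rings and nuclear surveillance, are not described here.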

How the data were processed

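Sed-seq and Polysome-seq libraries (279 samples) were analysed from the files the authors deposited. The estimated counts (expected counts) and TPM per transcript were made by the authors with kallisto 0.48.0 on build R64, after Trim Galore 0.6.10 and, in UMI libraries, STAR 2.7.10b, SAMtools 1.16.1 and UMI-tools 1.1.4. Counting used strand in all protocols, with the opposite setting in paired-end libraries without UMIs. Some antisense RNAs had similar unstressed TPM in both paired-end protocols (RME2 10.97 with UMIs and 10.77 without, GAL4 lncRNA 2.65 and 2.96). PHO84 AS RNA did not, at 2.41 with UMIs and 6.54 without, a difference that was not tested. The deposited mixing values were a ratio per fraction, estimated by the authors on mRNAs by conservation of mass, and the deposited pSup and ribosome occupancy columns were a fraction from 0 to 1. The authors' fold-change and Z-score columns were not used. Heat-experiment libraries were single-end after RiboZero depletion, without UMIs; the CHX, 15% ethanol, DTT, depletion, 0.5% azide and heat gradient libraries were paired-end with UMIs; the rest were paired-end without UMIs.

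Counts were rounded. Total libraries were tested with edgeR 4.0.16 (TMM, filterByExpr, quasi-likelihood) and fractions with limma 3.58.1 in R 4.3.3, on log odds after adding 0.5 to each fraction, with a trend on mean count, for features with at least 20 counts over the fractions in every lysate. Gradient fractions were scaled by their summed S. pombe counts before shares and log odds were formed. Tests ran over all features of 1 experiment with Benjamini-Hochberg adjustment. Tables and figures used Python 3.11.15, pandas 2.3.3, scipy 1.17.1 and matplotlib 3.10.9. Each procedure was tested on simulated data. The rule for the RNAs used annotation alone, but it, the landmark RNAs and the lists of binding proteins were set with earlier results of these data known. Named RNAs were landmarks (U1 to U6, U3, U14, SNR10, SNR30, SNR52, SNR190, SCR1, RPR1, NME1, TLC1 and long regulatory RNAs) and, per comparison, up to 3 of the largest rises and falls among called RNAs of the same sign in both same-numbered pairs and with at least 100 counts in every library of 1 group. Those with shared reads (SNR17A and SNR17B, SNR39 and SNR39B, RUF5-1 and RUF5-2, SNR7-L and SNR7-S, 8 intron-hosted snoRNAs, and same-strand overlaps such as SRG1 with SER3) are uncertain.

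Same-numbered lysates deviated together in Total libraries of the heat (correlations 0.142 to 0.174), CHX (0.432 to 0.71) and eIF3b experiments (0.182 to 0.399), and not throughout in the other experiments with 3 or more pairs or in log odds. With 1 pair, 0.8% azide had 0.261 in Total libraries and 0.32 in log odds. Alternatives were DESeq2 1.42.0, its size factors, TMM from mRNAs alone, no filter on low counts, a minimum of 100 counts, centring on mRNAs under 1000 nt or, in gradients, on the median mRNA, scaling fractions by the NanoLuc spike-in, no trend, a replicate block and leaving out each lysate. Scaling of Total libraries by the NanoLuc spike-in and the crossed pairing of the 15% ethanol experiment were added after seeing the data. Depth limits short RNAs most, and counts without UMIs are not independent molecules.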

Additional observations from a re-analysis of the deposited data

Results flagged for a closer look

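Heat acted differently between arms in 4 cases by the test of the interaction. With CHX pretreatment the absolute sedimentation change at 46°C differed for 6 of 62 RNAs, all 6 higher and all other ncRNAs, where 72.5% of all features were higher. With eIF4E depletion the change relative to mRNAs at 46°C differed for 9 of 75 RNAs, all higher, where 3.85% of all features were higher. With eIF3b depletion the relative change differed for 44 of 76 RNAs, all higher, where 20% of all features were higher. The absolute change differed for 15 of 76, 12 higher and 3 lower, where 0.719% and 30.4% of all features were. The causes were not tested. No group had 4 or more lysates, so single lysates were not compared with the rest of their group.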

How the results depend on the processing

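Most counts of called RNAs stayed within 1.5 times their value under the alternatives (95 recomputed counts moved further), and 5 single values turned sign. These were SCR1 (0.0402) and TLC1 (0.147) in CHX Total libraries by the spike-in, SNR128 at 15% ethanol (1.02 without the first 15% lysate and -1.27 without the second), and SNR190 at 42°C (0.0159) and SNR43 in azide (0.0852) in gradients centred on the median mRNA. Scaling by the spike-in set the scale itself and changed Total calls to 1 (spike-in lysates at 46°C), 24 (CHX), 24 (0.5% azide), 14 (0.8% azide), 29 (5% ethanol), 7 (7.5%), 12 (15%), 6 (DTT) and 33 (eIF3b). For absolute sedimentation it gave 0 (CHX interaction), 39 (eIF4E), 8 (eIF4E interaction), 0 (5% ethanol), 27 (10% ethanol) and 0 (0.8% azide). DESeq2 called 22 at 15% ethanol.

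With the replicate block Total calls were 19 (heat, 42°C), 4 (CHX experiment mock, 46°C) and 1 (eIF4E interaction). Absolute calls with it were 11 (CHX), 12 (CHX interaction), 0 (5% ethanol), 20 (7.5%) and 41 (0.8% azide), and relative calls 15 (CHX), 1 (CHX interaction), 17 (DTT) and 14 (eIF4E interaction). It moved no other count by over 1.5 times. The crossed pairing at 15% ethanol gave 85 absolute and 65 relative calls. In log odds the numbers did not pair throughout: 5 of 6 pairs passed 0.1 in the CHX experiment, 2 of 3 in heat, 9 of 15 for eIF3b and 1 of 15 for eIF4E. Without a trend absolute calls were 1 (eIF4E), 29 (0.5% azide) and 6 (5% ethanol). At least 100 counts gave 27 (CHX experiment mock, 46°C) and 1 (CHX) absolute calls, 2 relative calls in DTT, and 29 (46°C) and 7 (ethanol) in gradients. Centring on short mRNAs gave 18 (CHX), 0 (DTT), 4 (eIF4E interaction) and 11 (5% ethanol) relative calls, and on the median mRNA 51 (42°C), 75 (azide) and 46 (ethanol) in gradients.

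Leaving out single lysates gave ranges of Total calls of 0 to 8 (heat, 42°C), 0 to 2 (heat, 46°C), 27 to 58 (spike-in lysates), 37 to 65 (0.5% azide), 25 to 46 (15% ethanol) and 13 to 21 (eIF4E). Relative calls ranged over 1 to 18 (42°C), 0 to 27 (46°C), 26 to 48 (CHX experiment mock), 0 to 29 (CHX), 0 to 20 (CHX interaction), 1 to 19 (DTT), 39 to 47 (eIF4E), 1 to 10 (eIF4E interaction), 3 to 13 (5% ethanol) and 23 to 32 (10%). Absolute calls ranged over 0 to 1 (CHX), 2 to 20 (CHX interaction), 0 to 19 (DTT), 2 to 20 (eIF3b interaction), 2 to 3 (5% ethanol), 18 to 38 (7.5%), 6 to 35 (0.8% azide) and 49 to 87 (spike-in lysates), and gradient calls over 16 to 37 (42°C) and 5 to 31 (ethanol). The causes were not tested, beyond fewer lysates and another scale by construction.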

Other observations

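The 7 reporter strains, with 1 unstressed lysate each, belong to no comparison above. Their median pSup was 0.982 for RPR1, 0.979 for NME1, 0.977 for SNR84, 0.971 for LSR1, 0.945 for SCR1 (0.940 to 0.956) and 0.912 for TLC1 (0.892 to 0.930). SNR37 had 0.660, SNR17A 0.593 (0.553 to 0.674), SNR34 0.532 and SNR9 0.501.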
